A study of Mus musculus with 6 samples.

Results

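The 51 genes described here encode the machinery that copies DNA in S phase and the enzymes that supply its nucleotides. They were taken by symbol from a table of 14327 genes, in which all 51 were found, and all 51 were among the 11596 that were tested (average over the libraries 1 FPKM or more). They comprise 12 genes of origin licensing, 31 of the replication fork, 5 of nucleotide supply and 3 of E2F control. Cells were neurospheres, in which neural stem cells and their progeny grow as suspended clusters, raised with B27, N2, EGF and bFGF from the hippocampus of mice at postnatal day 0. There were 3 libraries from wild-type mice (WT) and 3 whose labels give a conditional knockout (cKO) of Slc22a17, a receptor for the iron carrier lipocalin 2. The sources used here do not give what drives the deletion, the strain or sex of the mice, or whether replicates were separate cultures or animals. The p-values below therefore reflect how far these particular libraries vary, and that variation may be technical.

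Origins of replication are licensed in G1 phase, when the origin recognition complex, Cdc6 and Cdt1 load a ring of the MCM proteins onto DNA. In S phase the kinase of Cdc7 and Dbf4, with Mcm10, Cdc45 and the GINS complex, turns the ring into an active helicase, and polymerases follow it, held to DNA by the sliding clamp Pcna. Transcription factors of the E2F family, released when cyclins inactivate the retinoblastoma protein, drive many of these genes at the entry into S phase. In the postnatal hippocampus, stem cells that divide express this machinery and resting ones largely do not.

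None of the 51 genes passed an adjusted p of 0.05 (limma, Benjamini-Hochberg over all tested genes), where 0.0259% of all tested genes did. Of the 51, 50 had a lower mean log2 value in cKO, against 55.5% of all tested genes. The count was 49 after quantile normalization and 48 after centring each library on its median, where the share of all genes was 47.3% and 46.9%. The median log2 fold change of the 51 genes was -0.25, against -0.015 over all tested genes. These fold changes are differences of log2(FPKM + 1), a scale that understates changes of genes with low values. In bulk RNA, fewer cells in S phase and less of these transcripts per cell cannot be told apart. At an unadjusted p under 0.05, 25 of the 51 were lower and 0 higher, against 7.82% lower and 4.44% higher of all tested genes. The 95% intervals of the other 26 included 0.

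**Figure D1:**
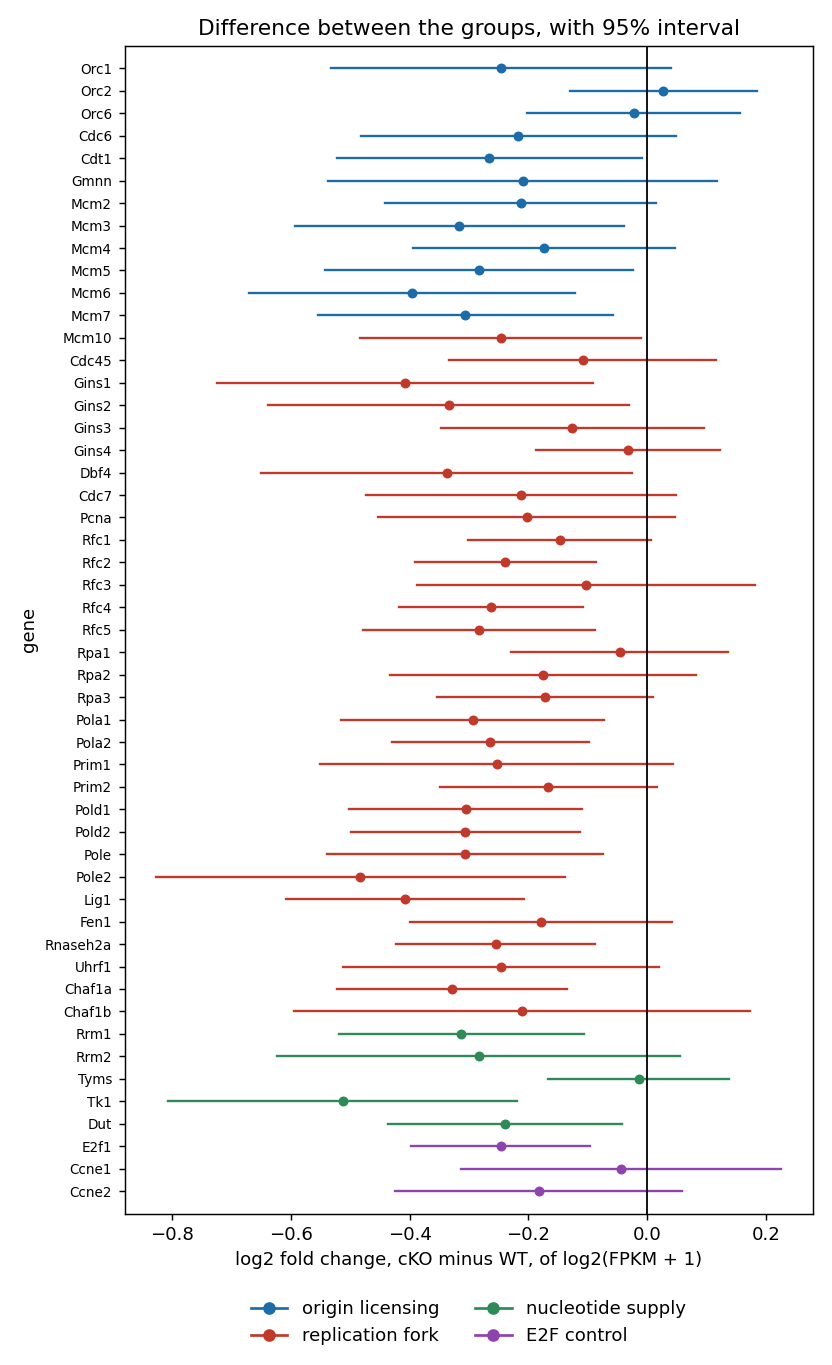
Difference between the groups for each of the 51 genes, as the log2 fold change (cKO minus WT, of log2(FPKM + 1), points) with its 95% interval from limma (lines), coloured by role. Of the intervals 25 lie below 0 and 26 include 0, and none of the genes passed after adjustment over all tested genes.

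The libraries labelled cKO did not stand together. Summed over the 51 genes, the level was 981, 1024 and 1069 FPKM in WT replicates 1 to 3 and 816, 793 and 1007 FPKM in cKO replicates 1 to 3. Thus cKO replicate 3 lay within the WT range, and the other two below it. On average over the genes the position relative to the WT mean, on the log2 scale, was -0.29, -0.36 and -0.050 in cKO replicates 1 to 3, and -0.056, 0.0056 and 0.051 in WT. In cKO replicate 1, 44 of the 51 genes were below every WT library, against 33.2% of all tested genes. In cKO replicate 2 there were 47, against 33.5%, and in cKO replicate 3 there were 21, against 30.6%. All 3 cKO values lay below all 3 WT values for 19 genes, where 10.2% of all tested genes did so. For a further 24 genes cKO replicates 1 and 2 lay below all WT libraries and cKO replicate 3 did not, a pattern shared by 6.72% of all tested genes. The remaining 8 genes were Orc2, Orc6, Gins4, Cdc7, Rfc3, Rpa1, Tyms and Ccne1. The lowest of the 6 libraries was cKO replicate 2 for 37 of the 51 genes, against 21.1% of all tested genes, and the highest was WT replicate 3 for 27, against 15.1%.

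**Figure D2:**
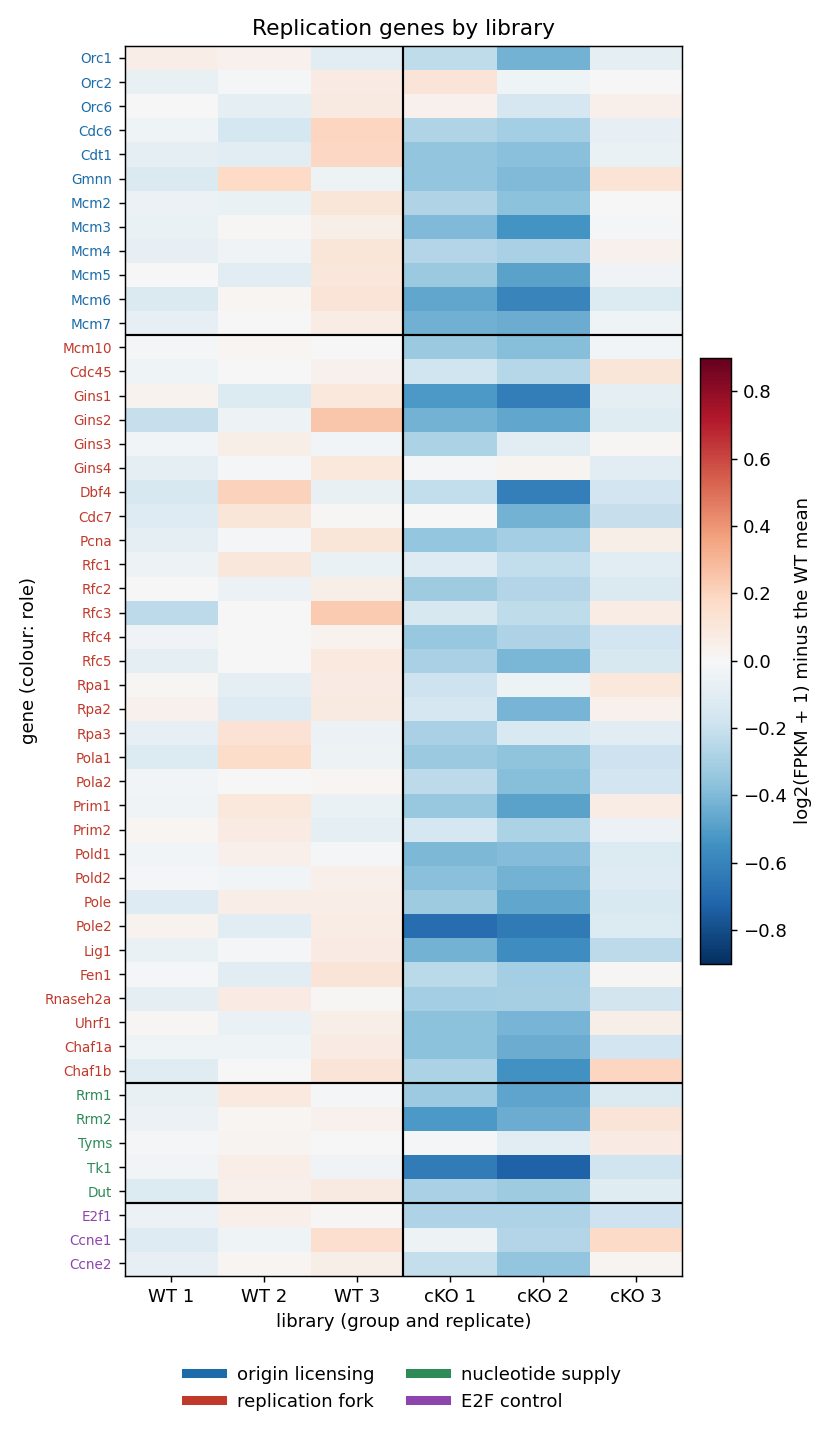
Level of each of the 51 genes (rows, ordered by role) in each library (columns), as log2(FPKM + 1) minus the WT mean of that gene. Blue marks values below the WT mean. Most rows are blue in cKO replicates 1 and 2 and pale in cKO replicate 3.

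Without cKO replicate 3, 40 of the 51 genes were lower at an unadjusted p under 0.05, against 7.65% of all tested genes, and 0 passed after adjustment, against 0.00862%. Tk1 then had the lowest adjusted p, at 0.0677 in limma. Without cKO replicate 2 the number was 15, against 7.22%.

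Other features of the libraries were set beside these genes. WT replicate 3 held transcripts of the Y chromosome (Ddx3y plus Eif2s3y at 25.9 FPKM), WT replicates 1 and 2 did not (0.10 and 0.070 FPKM), and the libraries labelled cKO held 43.8 to 51.2 FPKM. Against WT replicate 3 alone, 50 of the 50 genes that could be tested had a lower mean, against 53.8% of all genes tested that way, and 12 were lower at an unadjusted p under 0.05, against 2.31% (the single WT library is assumed to vary like the others). With the Y-linked level as a covariate, 51 of 51 were lower and 12 of them at an unadjusted p under 0.05, against 2.38%. That level did not overlap between the groups (at most 25.9 FPKM in WT, at least 43.8 FPKM in cKO). The covariate fit therefore cannot tell the Y-linked level apart from the group label. The part of sex in the levels of the replication genes was not tested. Slc22a17 itself had 181, 169 and 204 FPKM in WT, and its cKO-labelled counterparts had 164, 166 and 187 FPKM (log2 fold change -0.097, adjusted p = 0.707 in limma), so directions are between libraries by their labels, not between cells with and without the transcript. As for the labelled cell type, Nes was at 80.7 to 118 FPKM and Sox2 at 125 to 148 FPKM over the 6 libraries. A lower mean in cKO was found for 8 of 12 neural stem cell markers, against 55.5% of all tested genes. None of these markers passed the adjusted threshold. Of the neuron markers 4 of 9 in the table were tested. Dcx, Rbfox3, Stmn2 and Syt1 stayed under 1 FPKM in each library, while Map2 was at 70.8 to 84.8 FPKM, Elavl3 at 4.8 to 8.11 FPKM and Tubb3 at 3.46 to 5.40 FPKM, and the list summed to 85.9 to 93.5 FPKM in WT and 84.4 to 101.5 FPKM in cKO. FPKM values carry no read totals.

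The promoters of members of the MCM ring are shown because these genes lay at closely similar positions in each library and E2F factors are known regulators of several of them. Each run ends at the base before the RefSeq gene (build GRCm38.p6), is read 5′ to 3′ on the gene's strand and contains no exon of the GENCODE M21 annotation. Capitals mark matches to TTTCCCGC, TTTGGCGC, TTTCGCGC or TTTGCCGC, forms of the E2F consensus, on either strand, and matches can overlap each other. The Mcm6 window is chr1:128359706-128359955 (minus strand), with 3 matches. The Mcm5 window is chr8:75109259-75109467 (plus strand), with 2 overlapping matches. The Mcm2 window, chr6:88898781-88899030 (minus strand), has 0 matches and is shown for contrast.
Mcm6: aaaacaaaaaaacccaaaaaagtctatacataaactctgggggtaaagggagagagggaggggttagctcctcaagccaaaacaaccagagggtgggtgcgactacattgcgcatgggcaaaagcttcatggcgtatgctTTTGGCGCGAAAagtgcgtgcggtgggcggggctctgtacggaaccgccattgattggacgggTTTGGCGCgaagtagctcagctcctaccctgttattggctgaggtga
Mcm5: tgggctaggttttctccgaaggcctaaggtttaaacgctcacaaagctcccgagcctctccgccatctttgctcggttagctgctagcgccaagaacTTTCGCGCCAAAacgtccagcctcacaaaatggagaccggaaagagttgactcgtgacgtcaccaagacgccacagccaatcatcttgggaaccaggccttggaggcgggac
Mcm2: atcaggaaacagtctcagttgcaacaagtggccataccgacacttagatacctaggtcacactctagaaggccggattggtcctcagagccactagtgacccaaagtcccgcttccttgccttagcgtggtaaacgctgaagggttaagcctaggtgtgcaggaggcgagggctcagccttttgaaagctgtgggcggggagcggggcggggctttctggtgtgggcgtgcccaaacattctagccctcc

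RefSeq promoter windows, which run from 250 bases before to 50 after each start, were given for 42 of the 51 genes. At least 1 of the 4 forms of the motif was found in 14 of these 42 (33.3%), against 4.92% of the 9386 tested genes with a window. By window the shares were 28.0% of the 50 windows of these genes and 2.26% of all 32851 windows. The 14 genes were Cdc6, Cdt1, Gins3, Lig1, Mcm3, Mcm5, Mcm6, Mcm7, Orc1, Pola1, Pold1, Pole2, Rfc3 and Uhrf1. A CCAAT box, in which the factor NF-Y binds, was found on either strand in 59.5% of the 42 genes, against 43.8%, and the letters TTTGAA, a form of the cell cycle element known from mitotic genes, in 16.7%, against 13.8%. The median log2 fold change was -0.29 (from -0.48 to -0.10) for the 14 genes with an E2F match and -0.23 (from -0.51 to 0.027) for the 28 without. A match describes letters in the window and not binding, and the 2 ranges overlap.

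Licensing genes had a median log2 fold change of -0.23, with 11 of 12 means lower, against 55.5% of all tested genes. The count with all cKO libraries below all WT libraries was 0 of 12, near the share of 10.2% of all tested genes. In 10 of the 12, cKO replicates 1 and 2 were below every WT library while cKO replicate 3 was not, against 6.72%. The genes of the helicase ring showed this without exception. Mcm6 had the largest difference of the ring, with 23.3, 25.9 and 27.8 FPKM in WT replicates 1 to 3 and 18.2, 16.6 and 23.4 FPKM in cKO replicates 1 to 3. Its cKO mean was 75.6% of the WT mean (log2 fold change -0.40 with SE 0.12, adjusted p = 0.257). The ranges touched only through cKO replicate 3, which lay just above WT replicate 1.

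Mcm7, the most abundant of the ring, stood at 41.9, 44.3 and 46.2 FPKM in WT against 32.4, 32.04 and 42.95 FPKM in cKO (log2 fold change -0.31, adjusted p = 0.315). Mcm3 was at 22.97, 24.1 and 24.8 FPKM in WT against 17.97, 16.2 and 23.7 FPKM in cKO (log2 fold change -0.32, adjusted p = 0.346). For Mcm5 the values were 19.6, 18.3 and 21.2 FPKM in WT and 15.4, 13.8 and 19.3 FPKM in cKO (log2 fold change -0.28, adjusted p = 0.373). In all 3 genes cKO replicates 1 and 2 were the lowest of the 6 libraries, and cKO replicate 3 lay among the WT libraries. Mcm2 was at 22.4, 22.3 and 25.3 FPKM in WT and 19.2, 17.8 and 23.4 FPKM in cKO (log2 fold change -0.21, adjusted p = 0.441). Mcm4 was at 22.4, 23.1 and 25.6 FPKM in WT and 19.6, 19.1 and 24.3 FPKM in cKO (log2 fold change -0.17, adjusted p = 0.505), the smallest difference in the ring. WT replicate 3 was the highest library for each of the 6 genes and cKO replicate 2 the lowest.

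The 6 ring subunits, which enter the helicase in equal numbers, did not have equal transcript levels per length, and their proportions were compared within each library. Mcm7 made up 27.5% ± 0.50 of the summed FPKM of the ring in WT and 27.2% ± 0.69 in cKO (SD, n = 3 each). Mcm6 made up 16.0% ± 0.60 in WT and 14.7% ± 0.30 in cKO, Mcm4 14.8% ± 0.19 and 16.0% ± 0.53, and Mcm2 14.5% ± 0.35 and 15.3% ± 0.38. For these last 3 the WT and cKO shares did not overlap, cKO replicate 3 included. Each gave an exact two-sided permutation p of 0.1, the smallest that 3 against 3 libraries can give (0.3 after Benjamini-Hochberg adjustment over 9 such quantities). The shares of Mcm3 (14.9% and 14.6%) and Mcm5 (12.3% in both groups) differed by less than the spread between libraries. The summed level of the ring was 153, 158 and 171 FPKM in WT and 123, 116 and 157 FPKM in cKO (exact permutation p = 0.2, adjusted p = 0.45).

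**Figure D3:**
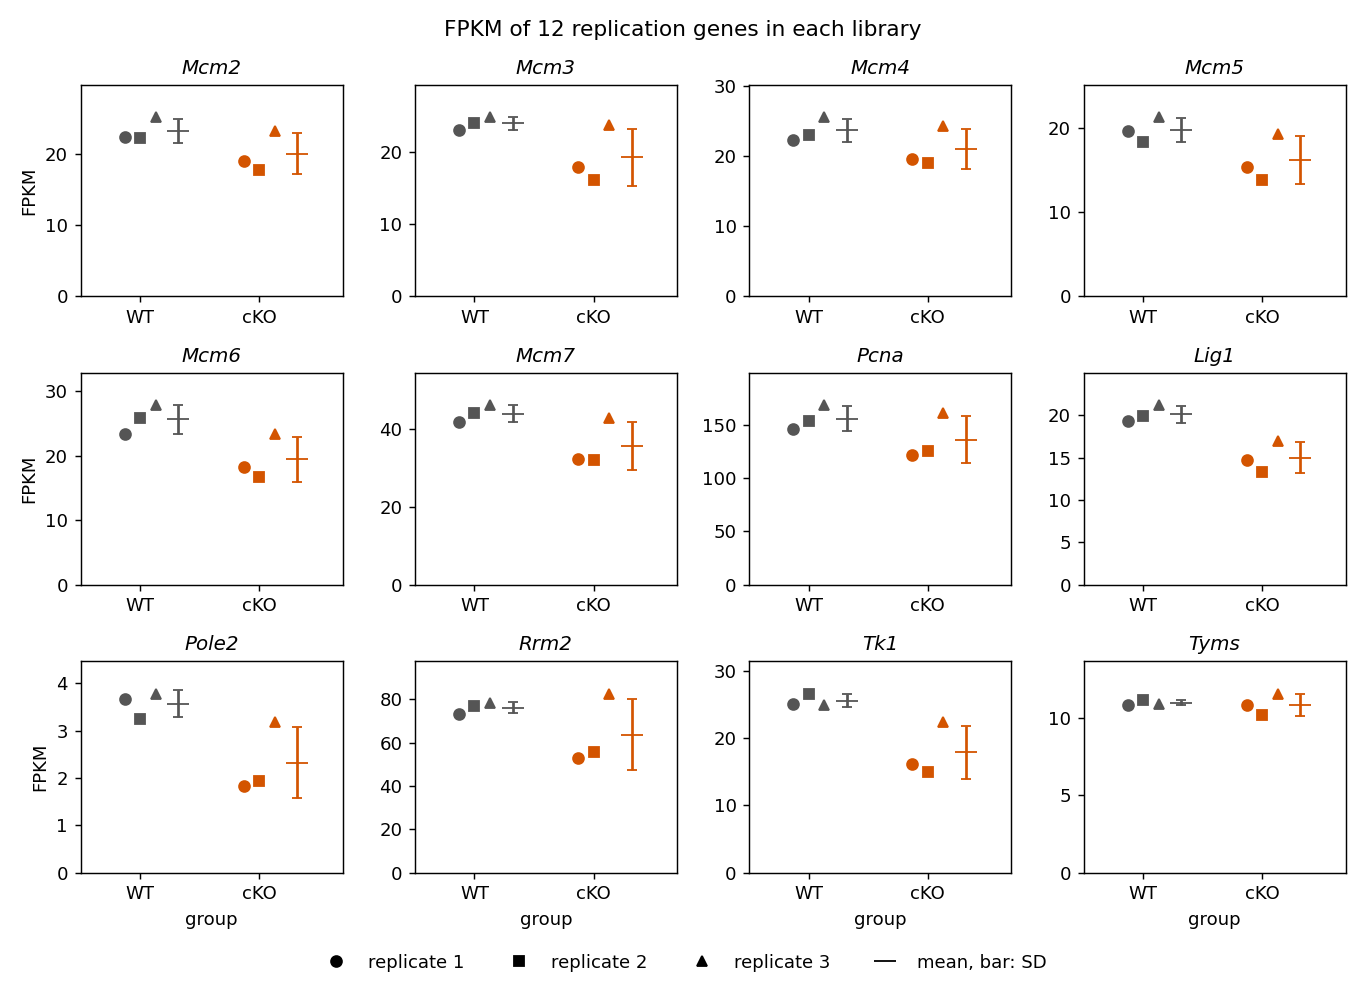
FPKM of 12 replication genes in each library (points, with a marker shape for each replicate number) beside the mean and SD of each group. Each vertical axis starts at 0. In the panels of Mcm2 to Mcm7, Pcna and Rrm2 the triangle of cKO replicate 3 lies within the WT range or, for Rrm2, above it, while Lig1 and Tk1 have all 3 cKO libraries below WT and Tyms shows the same level in both groups.

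Cdt1, Cdc6 and the inhibitor geminin also had cKO replicates 1 and 2 below every WT library. Cdt1, which brings the MCM ring to the origin, was at 8.87, 8.75 and 10.9 FPKM in WT against 7.17, 7.06 and 9.02 FPKM in cKO (log2 fold change -0.27, adjusted p = 0.393). Gmnn encodes geminin, the inhibitor that keeps Cdt1 from loading the ring again in the same cycle, and was at 12.8, 16.0 and 13.6 FPKM in WT and 10.8, 10.4 and 15.5 FPKM in cKO (log2 fold change -0.21, adjusted p = 0.603). Cdc6, the loading ATPase, was at 3.29, 2.95 and 4.03 FPKM in WT and 2.64, 2.56 and 3.19 FPKM in cKO (log2 fold change -0.22, adjusted p = 0.489). In these 3 genes the groups overlapped through cKO replicate 3. The ratio of Cdt1 to Gmnn was 0.68 ± 0.13 in WT and 0.64 ± 0.051 in cKO (SD, n = 3 each, exact permutation p = 0.7, adjusted p = 0.9).

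The 3 subunits of the origin recognition complex among the 51 genes were Orc1, Orc2 and Orc6, and whether they differ from each other was not tested. Orc1, the subunit whose level follows the cell cycle, was the least abundant of the 51 genes, at 1.3, 1.27 and 1.06 FPKM in WT and 0.88, 0.64 and 1.09 FPKM in cKO (log2 fold change -0.25, adjusted p = 0.468). Orc2 had a mean of 14.6 FPKM in WT and 14.9 FPKM in cKO (log2 fold change 0.027, 95% interval -0.13 to 0.18), the only one of the 51 with a higher mean. Its sign turned without WT replicate 1 (-0.0051) or cKO replicate 1 (-0.019). Orc6 averaged 13.6 and 13.4 FPKM (log2 fold change -0.023, 95% interval -0.20 to 0.16), and its sign turned after median centring (0.0013).

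Fork genes had a median log2 fold change of -0.25 with 31 of 31 means lower, and in 16 of the 31 all cKO libraries lay below all WT libraries, including cKO replicate 3, where 10.2% of all tested genes did so. Lig1 encodes the ligase that seals Okazaki fragments, the short pieces of the lagging strand, and had the lowest p of the 51 genes. The gene lies at chr7:13277175-13311426 in the RefSeq annotation of GRCm38.p6. Its level was at 19.3, 19.9 and 21.2 FPKM in WT against 14.7, 13.3 and 16.9 FPKM in cKO, 74.4% of the WT mean (log2 fold change -0.41 with SE 0.088, adjusted p = 0.192). Even the highest cKO library lay below the lowest WT library. Rnaseh2a, the catalytic subunit of the enzyme that removes RNA from DNA, was at 10.2, 11.5 and 10.9 FPKM in WT and 8.61, 8.63 and 9.60 FPKM in cKO (log2 fold change -0.26, adjusted p = 0.244), also without overlap. Fen1, the nuclease that trims the flaps of Okazaki fragments, had means of 13.8 FPKM in WT and 12.1 FPKM in cKO, with overlap (log2 fold change -0.18, adjusted p = 0.496).

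Among polymerase and primase genes 6 of 8 had all cKO libraries below all WT libraries, against 10.2% of all tested genes, and the median log2 fold change was -0.30. Pola2, the regulatory subunit of the polymerase that starts each strand, was at 11.03, 11.3 and 11.4 FPKM in WT and 9.38, 8.39 and 9.87 FPKM in cKO (log2 fold change -0.26, adjusted p = 0.238). Pold2, a subunit of the lagging-strand polymerase delta, was at 34.0, 33.9 and 35.7 FPKM in WT and 26.3, 25.4 and 31.8 FPKM in cKO (log2 fold change -0.31, adjusted p = 0.238). In neither gene did a cKO library reach a WT value. The catalytic subunits Pold1, of polymerase delta, and Pole, of the leading-strand polymerase epsilon, each had a log2 fold change of -0.31, and Pola1 had -0.29. Pold1 was at 12.6, 13.3 and 12.7 FPKM in WT and 9.44, 9.58 and 11.7 FPKM in cKO (adjusted p = 0.241), so all of its cKO libraries lay below WT. Pole2, the accessory subunit of polymerase epsilon, had a cKO mean of 65.0% of WT, with 3.67, 3.25 and 3.78 FPKM in WT and 1.83, 1.94 and 3.18 FPKM in cKO (log2 fold change -0.48, SE 0.15, adjusted p = 0.271). For Pole2, cKO replicate 3 lay only just below WT. The primase subunits Prim1 and Prim2 overlapped through cKO replicate 3, with log2 fold changes of -0.25 and -0.17.

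Pcna was the most abundant of the 51 genes, at 146, 153 and 168 FPKM in WT and 122, 126 and 161 FPKM in cKO (log2 fold change -0.20, adjusted p = 0.494), with cKO replicate 3 inside the WT range. The clamp loader, which opens Pcna and places it on DNA, was more uniform. Rfc4 was at 12.04, 12.3 and 12.6 FPKM in WT and 9.52, 9.98 and 10.8 FPKM in cKO (log2 fold change -0.26, adjusted p = 0.235). Rfc2 was at 31.9, 30.6 and 33.1 FPKM in WT and 25.3, 26.4 and 29.0 FPKM in cKO (log2 fold change -0.24, adjusted p = 0.238). Rfc5 averaged 11.9 ± 0.79 FPKM in WT against 9.66 ± 0.99 FPKM in cKO (SD, n = 3 each). In all 3, as in Rfc1, all cKO libraries lay below all WT libraries. Rfc3 was the exception, with 11.7, 14.0 and 16.6 FPKM in WT and 12.5, 11.8 and 14.7 FPKM in cKO, so that every cKO value lay inside the WT range (log2 fold change -0.10, adjusted p = 0.798).

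Of the genes that activate the helicase, Gins1 had the largest difference, at 6.69, 5.88 and 7.0 FPKM in WT and 4.26, 3.88 and 6.07 FPKM in cKO (log2 fold change -0.41, adjusted p = 0.297). Gins2 was at 14.5, 16.3 and 20.4 FPKM in WT and 12.3, 11.97 and 15.6 FPKM in cKO (log2 fold change -0.33, adjusted p = 0.367). In both, cKO replicate 3 reached the WT range. The GINS complex holds 1 copy of each of its 4 subunits, yet Gins3 and Gins4 differed less, with log2 fold changes of -0.13 and -0.032, and Gins4 was at 17.9, 18.7 and 20.3 FPKM in WT and 18.7, 19.2 and 17.6 FPKM in cKO. Whether the 4 subunits differ from each other in response was not tested. Dbf4, the activator of Cdc7, had means of 9.09 FPKM in WT and 7.01 FPKM in cKO (log2 fold change -0.34, adjusted p = 0.377). Its kinase Cdc7 was at 6.57, 7.84 and 7.28 FPKM in WT and 7.19, 5.12 and 6.10 FPKM in cKO (log2 fold change -0.21, adjusted p = 0.490), so that here cKO replicate 1 and not replicate 3 lay inside the WT range. Mcm10 had a log2 fold change of -0.25 and Cdc45 one of -0.11. The subunits of RPA, which coats single-stranded DNA at the fork and in repair, had small differences, with log2 fold changes of -0.046 for Rpa1, -0.18 for Rpa2 and -0.17 for Rpa3. Rpa2 was at 19.1, 16.98 and 19.6 FPKM in WT and 16.6, 13.6 and 19.0 FPKM in cKO. Only Rpa3 had groups that did not overlap, with 20.4, 23.6 and 20.7 FPKM in WT and 17.5, 19.6 and 20.1 FPKM in cKO.

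Chromatin is rebuilt behind the fork by the histone chaperone CAF-1 and by Uhrf1, which recruits the maintenance DNA methyltransferase. The large CAF-1 subunit Chaf1a was at 12.1, 12.1 and 13.1 FPKM in WT and 9.39, 8.84 and 10.9 FPKM in cKO (log2 fold change -0.33, adjusted p = 0.235), without overlap. Its partner Chaf1b was at 7.38, 8.01 and 8.81 FPKM in WT and 6.42, 5.21 and 9.36 FPKM in cKO (log2 fold change -0.21, adjusted p = 0.664). Here cKO replicate 3 was the highest of all 6. Uhrf1 was at 24.3, 23.1 and 25.0 FPKM in WT and 18.4, 17.8 and 25.0 FPKM in cKO (log2 fold change -0.25, adjusted p = 0.443), with cKO replicate 3 equal to the highest WT library.

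The 5 nucleotide supply genes had log2 fold changes from -0.51 for Tk1 to -0.014 for Tyms. On log2(FPKM + 1) that of Tk1 was the largest of the 51, whereas with a pseudocount of 0.5 it was -0.53 and that of Pole2 was -0.56. Tk1, the cytosolic thymidine kinase of the salvage pathway (chr11:117815519-117826087, GRCm38.p6), was at 25.1, 26.6 and 24.95 FPKM in WT and 16.2, 15.0 and 22.4 FPKM in cKO, 69.9% of the WT mean (log2 fold change -0.51 with SE 0.13, adjusted p = 0.235). All 3 cKO libraries lay below WT. Tyms, the synthase that makes thymidylate anew, was at 10.9, 11.2 and 10.9 FPKM in WT and 10.9, 10.2 and 11.6 FPKM in cKO (log2 fold change -0.014, 95% interval -0.17 to 0.14). The sign of Tyms turned with both scalings, to 0.0033 after quantile normalization and 0.0098 after median centring.

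Ribonucleotide reductase, which turns ribonucleotides into deoxyribonucleotides, has a large subunit, Rrm1, and a small one, Rrm2, that is made in S phase. Rrm1 was at 45.9, 51.3 and 47.5 FPKM in WT and 38.2, 34.3 and 43.9 FPKM in cKO (log2 fold change -0.31, adjusted p = 0.244), without overlap. Rrm2 was at 73.4, 77.0 and 78.2 FPKM in WT and 52.9, 55.5 and 82.7 FPKM in cKO (log2 fold change -0.28, adjusted p = 0.481). In cKO replicates 1 and 2 it lay well below WT, and in cKO replicate 3 above it. The ratio of Rrm2 to Rrm1 was 1.60, 1.501 and 1.65 in WT and 1.39, 1.62 and 1.88 in cKO (exact permutation p = 0.8, adjusted p = 0.9). Dut, which removes dUTP, was at 9.05, 10.3 and 10.6 FPKM in WT and 7.95, 7.78 and 9.16 FPKM in cKO (log2 fold change -0.24, adjusted p = 0.323).

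In the E2F group, E2f1, the activator itself (chr2:154559400-154569892, GRCm38.p6), was at 9.25, 9.94 and 9.68 FPKM in WT and 7.76, 7.77 and 8.33 FPKM in cKO (log2 fold change -0.25, SE 0.066, adjusted p = 0.235). Its groups did not overlap and its cKO libraries lay close together. Of the E-type cyclins, which switch on Cdk2 at the start of S phase, Ccne1 was at 8.92, 9.47 and 10.9 FPKM in WT and 9.42, 7.94 and 11.1 FPKM in cKO (log2 fold change -0.044, adjusted p = 0.919). The sign of Ccne1 turned without WT replicate 3 (0.031) or cKO replicate 2 (0.065). Ccne2 was at 5.07, 5.48 and 5.64 FPKM in WT and 4.5, 4.0 and 5.50 FPKM in cKO (log2 fold change -0.18, adjusted p = 0.527), and overlapped through cKO replicate 3.

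Across the roles, cKO replicate 3 lay below every WT library for 0 of 12 licensing genes, 18 of 31 fork genes, 2 of 5 nucleotide genes and 1 of 3 E2F genes, against 30.6% of all tested genes. Among the 20 members that also belong to a widely used set of G1/S phase markers it did so for 3, and among the other 31 members for 18. These are counts of genes in 1 library and carry no test of the difference between roles.

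Further genes of the same processes, from lists that do not hold the 51, had smaller median differences, and none passed the adjusted threshold. The shares to read their counts against are those of all tested genes, 55.5% with a lower mean and, at an unadjusted p under 0.05, 7.82% lower and 4.44% higher. Of the 23 G1/S phase markers that are not among the 51, 23 were lower (median log2 fold change -0.22, 10 at an unadjusted p under 0.05). Some of these markers, Dtl and Nasp among them, are also in the licensing and fork lists below, so these lists are not separate sets. The G2/M phase markers, given below, had a larger median difference than the 51 genes. Of 13 other licensing and firing genes 12 were lower (median log2 fold change -0.14, 4 lower at an unadjusted p under 0.05). Topbp1, a scaffold for helicase assembly, averaged 22.0 and 18.7 FPKM (adjusted p = 0.277), Dtl, part of the ligase that destroys Cdt1 in S phase, 6.90 and 5.57 FPKM (adjusted p = 0.302), and Mcmbp, a partner of the MCM proteins, 16.4 and 14.9 FPKM (adjusted p = 0.375). All 3 had groups that did not overlap. Of 26 other fork genes 23 were lower (median -0.19, 13 at an unadjusted p under 0.05). Dnmt1, the maintenance methyltransferase that works with Uhrf1, averaged 26.5 and 21.9 FPKM, Rnaseh2c 47.2 and 37.8 FPKM and the histone chaperone Nasp 28.2 and 22.6 FPKM (adjusted p = 0.235, 0.235 and 0.238).

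Other nucleotide genes were less uniform, with 20 of 28 lower and a median of -0.078 (5 lower and 1 higher at an unadjusted p under 0.05). Impdh1, an enzyme of guanine nucleotide synthesis, was at 8.29, 9.28 and 8.57 FPKM in WT and 5.55, 6.29 and 5.28 FPKM in cKO (log2 fold change -0.54, adjusted p = 0.122). Here cKO replicate 3 was the lowest of the 6. Tk2, the mitochondrial thymidine kinase, was higher in each cKO library than in any WT library, at 8.41, 7.81 and 6.85 FPKM in WT and 10.2, 9.71 and 9.88 FPKM in cKO (log2 fold change 0.34, adjusted p = 0.235), the opposite sign to the cytosolic Tk1. Dctd, a deaminase that feeds thymidylate synthesis, averaged 7.49 and 5.50 FPKM (adjusted p = 0.243). Of 21 other E2F and retinoblastoma genes 14 were lower (median -0.15, 5 lower and 1 higher at an unadjusted p under 0.05). Ccna2, the cyclin of S and G2 phase, averaged 36.0 and 26.6 FPKM (adjusted p = 0.244), and E2f2, another activator, 2.75 and 1.93 FPKM (adjusted p = 0.280). Lin52, a subunit of the complex that represses cell cycle genes in resting cells, averaged 16.0 and 19.4 FPKM (adjusted p = 0.275).

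Markers of later cell cycle phases and of resting cells were set beside the replication genes in each library. Of the 52 G2/M phase markers 51 were lower, with a median log2 fold change of -0.37, against -0.25 for the replication genes. At an unadjusted p under 0.05, 44 were lower and 1 higher, against 7.82% and 4.44% of all tested genes. The markers averaged -0.38, -0.51 and -0.17 relative to the WT mean (log2 scale) in cKO replicates 1 to 3, and -0.12, 0.17 and -0.053 in WT. WT replicate 2 was therefore the highest WT library for the G2/M markers and WT replicate 3 for the replication genes. Mki67 was at 26.6, 34.5 and 26.5 FPKM in WT and 21.96, 17.8 and 23.7 FPKM in cKO, and Top2a at 57.4, 69.9 and 58.9 FPKM and 43.9, 37.3 and 51.1 FPKM. In both genes all cKO libraries lay below WT, cKO replicate 3 included.

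Of the markers of quiescent stem cells 7 of 9 were tested and 4 were higher, against 5165 of all 11596 tested genes. The tested markers averaged 0.26, 0.32 and 0.34 relative to the WT mean in cKO replicates 1 to 3. Much of that average came from Hopx, a gene of resting hippocampal stem cells, which was at 5.65, 4.34 and 7.92 FPKM in WT and 17.9, 14.2 and 22.1 FPKM in cKO (log2 fold change 1.46, adjusted p = 0.103). The other tested markers were Aldoc (0.41), Id4 (0.32), Apoe (0.26), Sox9 (-0.047), Clu (-0.11) and Id3 (-0.18), by their log2 fold changes. The list summed to 4573 to 5966 FPKM in WT and 6166 to 6743 FPKM in cKO, of which Apoe made up 3326 to 4403 FPKM and 4519 to 4921 FPKM. Thbs4 and Lpar1 were under 1 FPKM in each library.

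Of the astrocyte markers 10 of 10 were tested and 7 were higher, against 5165 of all 11596 tested genes. The astrocyte markers averaged 0.17, 0.21 and 0.22 in cKO replicates 1 to 3. They summed to 3903 to 4987 FPKM in WT and 4796 to 5090 FPKM in cKO. At an unadjusted p under 0.05, 5 were higher, against 4.44% of all tested genes. The 5 were Gjb6 (log2 fold change 0.69, adjusted p = 0.103 in limma), Sparcl1 (0.52), S100b (0.37), Slc1a2 (0.24) and Fgfr3 (0.23). Gfap (0.13) and Gja1 (0.045) were also higher, and Aldh1l1 (-0.036), Slc1a3 (-0.042) and Aqp4 (-0.14) were lower. Of the oligodendrocyte lineage markers 10 of 10 were tested and 8 were lower, against 55.5% of all tested genes. They averaged -0.25, -0.11 and -0.27 in cKO and -0.16, 0.12 and 0.036 in WT. Their sums were 1418 to 1869 FPKM in WT and 1351 to 1597 FPKM in cKO. At an unadjusted p under 0.05, 4 were lower, against 7.82% of all tested genes. The 4 were the myelin genes Mbp (log2 fold change -0.66), Mag (-0.54), Mog (-0.46) and Cnp (-0.19). In the averages of the quiescent, astrocyte, oligodendrocyte, neuron and fibroblast lists cKO replicate 3 did not lie nearer to WT than both other cKO libraries. For the replication genes it did, and also for the neural stem cell markers (-0.12, -0.13 and -0.012 in cKO replicates 1 to 3). The same held for ependymal (-0.28, -0.11 and -0.070), microglia (-0.50, 0.23 and 0.19) and endothelial and mural markers (0.19, 0.092 and 0.015). Microglia markers summed to 29.7 to 33.8 FPKM in WT and 24.2 to 38.9 FPKM in cKO, fibroblast markers to 13.3 to 34.3 FPKM and 14.6 to 16.2 FPKM, and ependymal markers to 35.7 to 39.7 FPKM and 30.2 to 37.3 FPKM. No marker in these lists passed the adjusted threshold, and the part of cell composition in the levels of the replication genes was not tested.

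**Figure D4:**
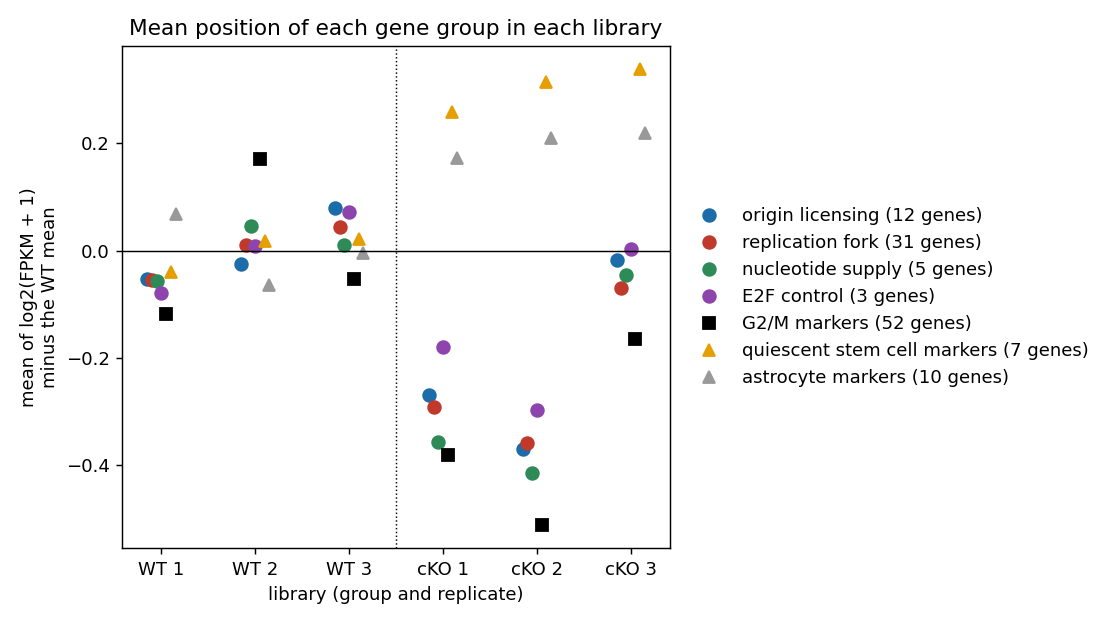
Mean over each gene group of log2(FPKM + 1) minus the WT mean (vertical axis) in each library (horizontal axis), for the 4 roles of the replication genes (circles), G2/M phase markers (squares), and quiescent stem cell and astrocyte markers (triangles). The circles of cKO replicate 3 lie near 0, those of cKO replicates 1 and 2 below it, and the triangles lie above 0 in all 3 cKO libraries.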

How the data were processed

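The authors deposited FPKM (fragments scaled by transcript length and library size) for each gene in each library, per the file headers. A BGISEQ service made the libraries, per the labels, and the submitters' processing notes name Bowtie2 and GRCm38 (mm10). The counting method, annotation and filters: not given in the sources used here. FPKM holds no read totals, so no count model was run, and precision comes from how far replicates differ.

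Columns were matched to samples by group and number. Values were analysed as log2(FPKM + 1) for genes averaging 1 FPKM or more over 6 libraries, with limma 3.58.1 (eBayes with trend) in R 4.3.3, all genes in 1 fit, two-sided, Benjamini-Hochberg adjusted, threshold 0.05. The fit was tested on simulated data whose changes were larger than those of the replication genes, so that test does not cover differences of their size. Proportions within a library were compared by exact permutation. Figures used matplotlib 3.10.9 in Python 3.11.15. Alternatives were other pseudocounts, filters and scalings, a fit with no variance trend, a block for replicate number, weights for libraries, each library left out, WT replicate 3 alone and Y-linked transcripts as a covariate.

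All 51 members may be named. Values by library are given for a fixed set of genes and for the 2 members of lowest p in each role or subgroup, and the other lists are represented by their 3 genes of lowest p. Cdc7, Gins4, Pold1, Pole2 and Rfc3 were given by library after their values were seen. Members and lists were chosen with earlier results of these data known. In GENCODE M21, 15 of the 51 genes share exonic bases with another protein-coding gene, 8 of them over 10% of their own (Ccne2, Chaf1a, Gins2, Orc2, Rfc2, Rfc4, Rfc5 and Rnaseh2a), and Pcna and Tyms have pseudogenes named after them. Values of these genes are uncertain to that extent. Pseudogenes of the 51 genes under other names were not searched for.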

Additional observations from a re-analysis of the deposited data

How the results depend on the processing

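In each alternative run with more than 1 library per group, 0 of the replication genes passed the adjusted threshold in limma. Over all tested genes 129 (1.11%) passed with library weights, and 0 after quantile normalization, with no variance trend or with the Y-linked covariate. At an unadjusted p under 0.05, 25 of the replication genes were lower in the fit of all 6 libraries, against 7.82% of all tested genes. Counts in the alternatives ran from 12 with the Y-linked covariate (against 2.38%) to 40 without cKO replicate 3 (against 7.65%). At a threshold of 0.1, 0 passed in the fit of all 6 libraries without weights, block or covariate. Between 45 and 51 of the replication genes had a lower mean in the alternatives. The lowest count was 45 of the 46 genes left by a filter of 5 FPKM. Leaving out 1 library at a time gave 46 to 50 lower, and medians of -0.33 to -0.18 for all, -0.35 to -0.16 for licensing, -0.33 to -0.19 for fork, -0.40 to -0.20 for nucleotide and -0.28 to -0.096 for E2F genes. With the Y-linked transcripts as a covariate, whose level did not overlap between the groups, the medians were -0.46, -0.55, -0.37, -0.46 and -0.41 in the same order. In WT replicate 3 against cKO replicates 1 and 2, chosen after seeing the data, they were -0.38 for all, -0.48 for licensing and -0.36 for fork genes. With library weights the medians moved towards 0, to -0.17 for all, -0.16 for licensing, -0.17 for fork, -0.16 for nucleotide and -0.088 for E2F genes, with 46 of 51 lower. The cause of these shifts was not tested.

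Signs of small differences turned in 21 of 927 single-gene results. With library weights Ccne1 was at 0.076, Gins4 at 0.012, Rfc3 at 0.098 and Tyms at 0.013. After median centring Orc6 was at 0.0013 and Tyms at 0.0098, and after quantile normalization Tyms was at 0.0033. Orc2 was at -0.046 against WT replicate 3 alone, at -0.17 with the covariate and at -0.033 in WT replicate 3 against cKO replicates 1 and 2. With 1 library left out, the values ranged from -0.15 to 0.065 for Ccne1, -0.073 to 0.016 for Gins4, -0.019 to 0.064 for Orc2, -0.064 to 0.043 for Orc6, -0.22 to 0.014 for Rfc3, -0.12 to 0.023 for Rpa1 and -0.058 to 0.028 for Tyms.

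With the replicate number as a block the median was -0.25, 0 of the 51 passed (lowest adjusted p = 0.0781, Lig1), and the calls over all genes went from 3 to 22. At an unadjusted p under 0.05, 33 of the 51 were lower with the block, against 1113 of all 11596 tested genes. Deviations of same-numbered libraries correlated at -0.043, 0.30 and 0.26 for numbers 1 to 3 over 11596 genes. Libraries matched their own number best for numbers 2 and 3 and not for number 1. Nothing in the labels says that the numbers mark pairs, and they were not taken to pair the samples.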
